A study of Apis cerana with 76 samples.

Results

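In Apis cerana, the honey bee of Asia, the miRNAs of queen pupae were set against those of plain pupae with the same eye colour. The queen group is named QDR and the plain group DR, and the authors' sequencing statistics call both dark red eye pupae. All entries of the stage count table with 10 or more counts in QDR or in DR were taken, which gave 137 of 146 miRNA entries. The 9 entries left out held 0 to 9 counts in either column. Just outside the minimum stood miR-971-3p with 8 counts in QDR and 9 in DR, and just inside it miR-3571 with 9 in QDR and 10 in DR and miR-2478 with 10 in QDR and 2 in DR. The drone rectum, whose organ column is also written DR, played no part in the comparison.

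Both groups were wild-type bees with no treatment stated, and each held 3 small RNA libraries. The labels give QDR as queen and DR only as honey bee, so the caste of the DR pupae is not known. The labels name no body part for the pupae and do not say whether each library was 1 animal or several, nor an age in days. The authors deposited 1 pooled column of counts per group, so each group is a single value, there is no replicate error, and no p-value is given.

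A miRNA is a small RNA of about the length of the sequences shown here, cut from either arm (5p or 3p) of a hairpin. It guides repression of messenger RNAs mainly through its seed, the bases 2 to 8 from its 5′ end, so that miRNAs with the same seed can share targets. In insects the pupal stage is when the larval body is rebuilt into the adult under pulses of the steroid hormone ecdysone, and several miRNAs, the let-7 complex above all, are known from flies to act in that change. In honey bees, queens and workers grow from the same kind of egg and part ways through larval feeding, and queens carry large ovaries as adults while workers do not.

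The 12 entries at least 2-fold higher in QDR and the 6 at least 2-fold lower carry the comparison. Their sequences, as given in the deposited count table with the seed in capitals, are shown for the 9 largest of the higher entries and the 5 largest of the lower ones.
miR-3791-3p: uCACCGGGuaggauucaucca
miR-3770-5p: aAUCCUGCaucaagugcguugc
miR-279b-3p: uGACUAGAucgaaauacucguc
miR-3715-5p: uCGGUAAGcagaguauaagaccu
miR-100-5p: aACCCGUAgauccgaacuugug
miR-125-5p: cCCCUGAGacccuaacuuguga
miR-34-5p: uGGCAGUGuuguuagcugguug
miR-275-3p: uCAGGUACcugaaguagcgcgcg
miR-10a-5p: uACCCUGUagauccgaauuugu
miR-989-3p: cGUGAUGUgacguagugguucu
miR-2796-3p: gUAGGCCGgcggaaacuacuugc
miR-965-5p: gGGGAAAGguuauagcgauuaug
miR-13a-5p: aCAUCAAAuugguuguggaaugu
miR-31a-5p: aGGCAAGAugucggcauagcuga
The seeds of these 14 are all different. Of the 12 higher entries 8 began with U, against 1 of the 6 lower entries, and the 5p arm gave 8 of the higher entries and 4 of the lower ones. Over all 137 entries 77 began with U and 62 were named as the 5p arm. Median length was 22 bases in the higher entries, 23 in the lower ones and 22 over all entries, and median GC content was 50% in the higher entries, 46.7% in the lower ones and 45.8% over all.

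The QDR column held 12.9 M miRNA counts from 29.1 M sequenced reads, a share of 44.4%, and the DR column held 14.8 M from 26.0 M, a share of 57.1%. The libraries had 7.31, 6.11 and 15.6 M reads in QDR, and 3.34, 6.67 and 16.0 M reads in DR. In QDR 1 library stood apart in base composition, with a GC content of 55.27% against 51.72% and 51.434% in its partners and 51.12% to 51.62% in the DR libraries. The libraries of the younger queen pupae QW (white eye) and QR (red eye) had 55.68% to 55.95% GC, and miRNA counts of only 1.79% and 2.12% of their reads. The columns do not separate libraries, so the part of that library in the QDR values was not tested. Levels below are CPM, counts relative to a column total that was adjusted with TMM factors (trimmed mean of M-values). A log2 ratio is QDR over DR on the scale of CPM + 1. A floor of 3 counts came to 0.265 CPM in QDR and 0.223 CPM in DR. In whole bodies or mixed tissue, fewer cells of a type and less RNA per cell cannot be told apart.

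Most of the miRNA content was alike in both columns. The 5 most abundant miRNAs made up 79.2% of counts in QDR and 77.6% in DR, and each was under 1.5-fold apart. miR-184-3p, which acts in the female germline and early embryo of flies, took 34.7% of counts in QDR and 25.7% in DR. miR-1-3p, the conserved muscle miRNA, took 17.5% in QDR and 24.5% in DR, so that these 2 differed in opposite directions. let-7-5p took 12.1% in QDR and 12.3% in DR. miR-8-3p, which promotes growth through the fat body in flies, took 10.5% in QDR and 10.02% in DR, and miR-9-5p 4.34% in QDR and 5.17% in DR. Exact binomial 95% intervals were narrow, for instance 34.7% to 34.8% for miR-184-3p in QDR and 25.66% to 25.70% in DR, and cover counting error only.

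Of the 137 entries, 79 reached 50 CPM in at least 1 of the 2 columns and 58 did not. Among the 79, 18 were at least 2-fold apart, which is 22.8%, with 12 higher in QDR (15.2%) and 6 lower (7.59%). The other measured entries comprised 46 under 1.5-fold apart and 15 from 1.5-fold to under 2-fold. The median log2 ratio of the 79 was 0.09 and the median size of the ratio, without its sign, was 0.54. The 18 entries together held 6.31% of counts in QDR and 5.90% in DR. Counting error was small beside these ratios, since 67 of the 79 had 1000 or more counts on both sides, and their 95% counting intervals reached at most 0.12 on either side in log2. These intervals do not cover the spread between animals or libraries, which the pooled columns hide.

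**Figure D1:**
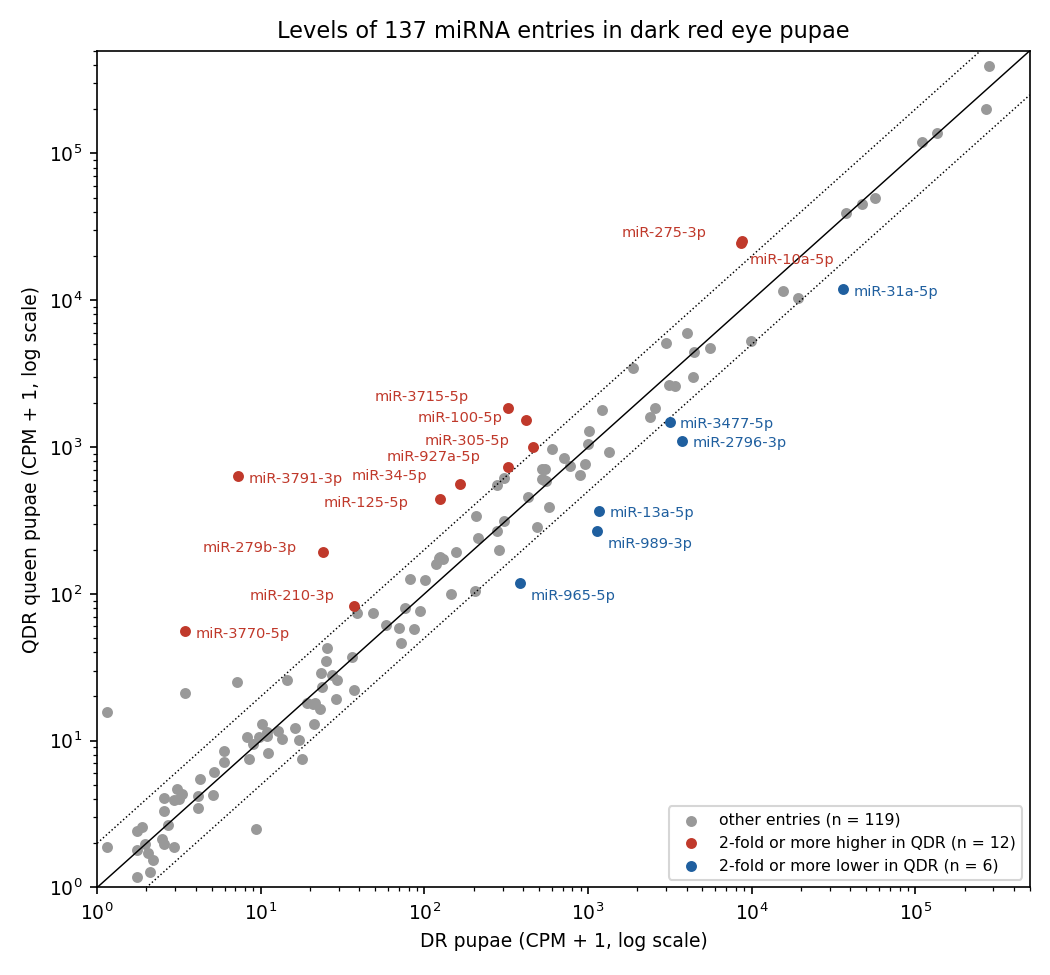
Level of each of 137 miRNA entries in QDR queen pupae (vertical axis, CPM + 1, log scale) and in DR pupae (horizontal axis, CPM + 1, log scale), 1 pooled column each. The solid line marks equal levels and the dotted lines 2-fold; the 12 named red entries lie above and the 6 named blue entries below, while the 5 most abundant miRNAs at the upper right lie between the dotted lines.

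The largest differences were in miRNAs that were scarce in DR and higher in QDR, where they were still a minor part of the counts. miR-3791-3p, numbered from bee sequencing and without a role given here, stood at 629 CPM in QDR and 6.23 CPM in DR (7126 counts in QDR and 84 in DR), a log2 ratio of 6.45. The 95% counting interval of its CPM ratio was 6.35 to 6.99 in log2. It was also low in the other pupae, with 23.5, 48.7 and 9.21 CPM in W, R and DRB (white eye, red eye, and dark red eye with dark body) and 16.5 and 7.44 CPM in QW and QR. The queen pupal columns therefore did not share this level, which was present in QDR alone among the 7 pupal columns. Outside the pupae, egg had 2651 CPM and old adult workers (OA) 448 CPM. By TMM level QDR ranked 2 of the 18 stage columns, but 3, after egg and OA, when DESeq2 size factors or column totals were used, and 1 with counts per sequenced read.

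miR-279b-3p, a member of the miR-279 family that in flies sets the fate of CO2-sensing neurons, stood at 192 CPM in QDR and 23.1 CPM in DR, a log2 ratio of 3.0. Its levels in W, R and DRB were 38.6, 47.3 and 26.3 CPM, and in QW and QR 55.4 and 52.1 CPM. All queen pupal columns thus lay above all plain ones, although QW and QR did so by a small step. Like miR-3791-3p it was most abundant in egg (10911 CPM), with 426 CPM in OA.

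Since both were egg-abundant, a set of such entries was looked at beside them. The list of 8 egg-abundant entries, which was drawn from these same columns, had 5 measured members, of which 2 were at least 2-fold higher in QDR and 0 lower. The 2 were miR-3791-3p and miR-279b-3p themselves, which prompted the look and reached 50 CPM in QDR but not in DR. Their count therefore adds nothing to their own values. Over all measured entries 15.2% were higher and 7.59% lower. The list does not hold every entry that was highest in egg. Outside it, miR-10a-5p had a log2 ratio of 1.5 and miR-13a-5p of -1.68, and both had their highest stage level in egg. The median log2 ratio of the 5 measured list members was 0.67, against 0.09 over all measured entries. This median is the value of miR-92b-3p, which was not highest in egg, with 2090 CPM there and 4204 CPM in L1 larvae. Under 50 CPM, miR-2944-3p had 20.05 CPM in QDR and 2.45 CPM in DR (227 counts in QDR and 33 in DR), against 26337 CPM in egg and 873 CPM in OA. miR-3478-3p had 165 counts in QDR and 2 in DR, a CPM ratio of 98.2 with a 95% counting interval of 4.74 to 9.68 in log2. The 4 miR-92 entries of the list, in contrast, had log2 ratios of 0.08 to 0.67. In egg miR-2944-3p was more abundant than miR-3791-3p, and in QDR the order was the opposite.

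In the organ series, miR-279b-3p and miR-2944-3p were listed with the same sequence. miR-279b-3p reached 17369 CPM in worker ovary, 7868 CPM in drone testis and 748 CPM in queen ovary, and 54.8 to 526 CPM elsewhere. miR-2944-3p reached 76512 CPM in worker ovary, 7225 CPM in testis and 249 CPM in queen ovary. Outside the egg-abundant list, miR-6000-5p and miR-6045-5p were also highest in egg and in worker ovary, with 1017 and 1985 CPM in worker ovary. Their log2 ratios were -0.21 and 0.61, on only 13 and 42 counts in QDR and 20 and 28 in DR. The ovary and germline list held both directions. Of its 2 measured members miR-989-3p was lower in QDR (log2 ratio -2.08) and miR-184-3p had a log2 ratio of 0.49. In organs, however, miR-184-3p was highest in drone brain (986031 CPM), above queen ovary (383477 CPM) and worker ovary (176223 CPM). Whether gonad tissue played a part in the QDR and DR values was not tested.

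Among bee-numbered miRNAs, 10 of 26 were measured, and 3 were higher in QDR and 0 lower, against 15.2% higher and 7.59% lower over all measured entries. The median log2 ratio of the 10 was 0.42. With counts per sequenced read it was 0.006 for the same 10, and -0.11 over the 16 that reached 50 CPM by that scaling. miR-3770-5p stood at 54.4 CPM in QDR and 2.45 CPM in DR (616 counts in QDR and 33 in DR), a log2 ratio of 4.01. Its levels were 15.3, 15.6 and 2.35 CPM in W, R and DRB and 55.4 and 26.8 CPM in QW and QR, so that every queen pupal column lay above every plain one. It was close to the 50 CPM minimum and missed it under 3 other scalings. miR-3715-5p stood at 1850 CPM in QDR and 322 CPM in DR, a log2 ratio of 2.52. Here the plain pupae themselves spanned a wide range, from 2289 and 2411 CPM in W and R to 191 CPM in DRB, and QDR lay inside it. Its highest organ was drone testis (19341 CPM), followed by queen ovary (2719 CPM).

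**Figure D2:**
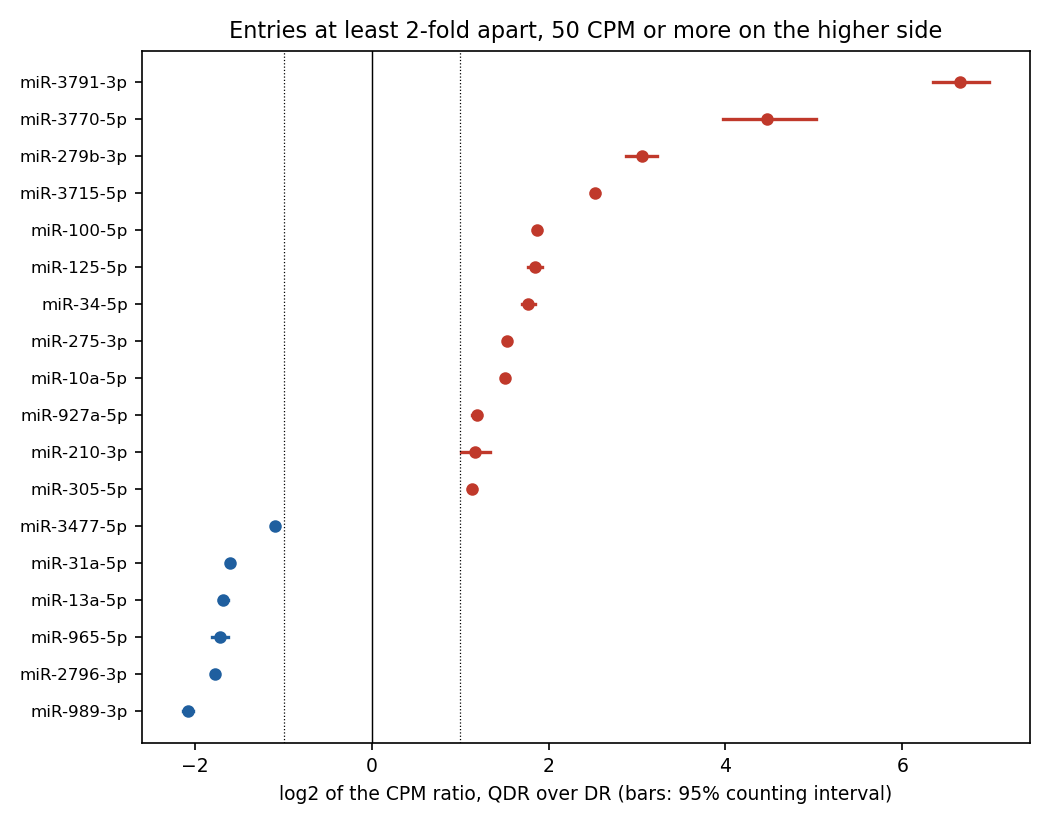
The 18 entries at least 2-fold apart with 50 CPM or more on the higher side, as the log2 of the CPM ratio of QDR over DR (horizontal axis, no pseudocount), with bars for the 95% counting interval. Red entries are higher and blue ones lower in QDR; dotted lines mark 2-fold. The bars do not show spread between animals, and only miR-3791-3p, miR-3770-5p and miR-279b-3p exceed an 8-fold ratio.

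The let-7 complex is, in flies, a single transcript that carries miR-100, let-7 and miR-125 and is switched on by ecdysone at metamorphosis. Of its 3 measured members, 2 were higher in QDR and 0 lower, against 15.2% higher and 7.59% lower over all measured entries. The member let-7 itself was level. miR-100-5p stood at 1525 CPM in QDR and 418 CPM in DR, a log2 ratio of 1.87. miR-125-5p, which with let-7 times neuron and muscle remodelling in flies, stood at 444 CPM in QDR and 124 CPM in DR, a log2 ratio of 1.84. let-7-5p stood at 137640 CPM in QDR and 134822 CPM in DR, a log2 ratio of 0.03. For miR-100-5p and miR-125-5p QDR had the highest level of the 18 stage columns under each of 4 scalings, and for let-7-5p with TMM but not with the others.

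Ratios within a column do not depend on scaling. For every 1000 counts of let-7-5p there were 11.1 of miR-100-5p in QDR and 3.10 in DR, and 3.23 of miR-125-5p in QDR and 0.917 in DR. The plain pupae W, R and DRB had 6.57, 7.14 and 3.42 of miR-100-5p, and QW and QR had 16.1 and 11.3. In miR-100-5p the 3 queen columns were therefore all above the plain ones by this measure. In miR-125-5p they were not, since QW and QR had 1.99 and 1.51 against 2.36, 1.43 and 1.501 in W, R and DRB. The 2 miRNAs had nearly the same proportion to each other in this pair, 291 of miR-125-5p per 1000 of miR-100-5p in QDR and 296 in DR. It was not fixed among the pupae, at 359, 200 and 438 in W, R and DRB and 124 and 134 in QW and QR. let-7-5p differs by 1 base from the entry miR-98, which held 136 counts in QDR and 123 in DR, so reads could have been split between the pair.

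The wider ecdysone and juvenile hormone list held 14 entries, 13 of them measured. Of these, 4 were higher in QDR and 0 lower, against 15.2% higher and 7.59% lower over all measured entries. With counts per sequenced read 3 were higher, without miR-927a-5p. The median log2 ratio of the 13 was 0.23, or -0.18 for the same 13 with counts per sequenced read. Beside miR-100-5p and miR-125-5p the 4 higher entries were miR-34-5p and miR-927a-5p. miR-252b-5p was just under 2-fold, with 609 CPM in QDR and 306 CPM in DR (log2 ratio 0.99). miR-14-3p, whose hairpin acts on ecdysone signalling in flies, had a log2 ratio of 0.77, miR-278-3p of 0.03 and miR-8-3p of 0.11. The lowest of the list was miR-927a-3p at -0.54.

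miR-34-5p, known from flies for its part in brain ageing and its control by ecdysone and juvenile hormone, stood at 560 CPM in QDR and 164 CPM in DR, a log2 ratio of 1.76. DR was the lowest of all 18 stage columns for this miRNA, except with counts per sequenced read. W, R and DRB had 767, 659 and 276 CPM and QW and QR had 485 and 359 CPM, so that QDR lay inside the range of the plain pupae. miR-34, miR-277 and miR-317 lie in 1 cluster in flies, and their log2 ratios were unequal: 1.76, -0.45 and 0.72. Per 1000 counts of miR-277-3p, which tunes breakdown of branched amino acids in flies, there were 863 of miR-34-5p in QDR and 185 in DR, against 3344, 2954 and 69.2 in W, R and DRB.

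miR-927a-5p belongs to a miRNA that in flies represses Kr-h1, the mediator of juvenile hormone. It stood at 732 CPM in QDR and 322 CPM in DR, a log2 ratio of 1.18, while the 3p arm of its hairpin stood at 196 CPM in QDR and 285 CPM in DR. The 5p arm thus made up 78.8% of counts of both arms in QDR and 53.0% in DR, with exact 95% intervals of 78.1% to 79.6% in QDR and 51.9% to 54.1% in DR. It was 63.2%, 63.2% and 75.0% in W, R and DRB. In organs miR-927a-5p was highest in queen ovary, with 19504 CPM, followed by drone and worker brain with 4563 and 3796 CPM. The other named arm of the family, miR-927b-5p, had a log2 ratio of 0.08.

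The gut and excretory list was split. Of 7 measured members 2 were higher in QDR and 1 lower, against 15.2% higher and 7.59% lower over all measured entries. The list's median log2 ratio was -0.31. miR-275-3p, which is needed for blood digestion and egg development in mosquitoes, stood at 25304 CPM in QDR and 8752 CPM in DR, a log2 ratio of 1.53. miR-305-5p, its neighbour in the fly genome and a regulator of gut stem cells there, stood at 1004 CPM in QDR and 458 CPM in DR, a log2 ratio of 1.13. The plain pupae had 17645, 16119 and 3596 CPM of miR-275-3p in W, R and DRB, and QW and QR had 26948 and 25523 CPM. The 3 queen columns thus differed little from each other, while DR and DRB lay well under W and R. For miR-305-5p QDR lay inside the plain range of 370 to 1776 CPM.

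The lower member was miR-31a-5p, with 11838 CPM in QDR and 36040 CPM in DR, a log2 ratio of -1.61. It made up 1.04% of the QDR column and 3.28% of the DR column. W and R had 5764 and 6653 CPM and DRB 61095 CPM, so QDR lay between R and DR. Young adult workers (YA) had 24777 CPM. In organs it was concentrated in the rectum, the hindgut store of the bee, with 195129 CPM in drones and 132474 CPM in workers, against 869 to 15831 CPM in the other 9 organ columns. Its near-identical entries miR-72-5p and miR-31b-5p, each 1 base away, held 74 and 6 counts in QDR and 226 and 16 in DR, beside 134032 counts of miR-31a-5p in QDR and 485784 in DR. miR-281-5p, a midgut miRNA in mosquitoes, was just under 2-fold lower, with 103 CPM in QDR and 202 CPM in DR (log2 ratio -0.96).

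**Figure D3:**
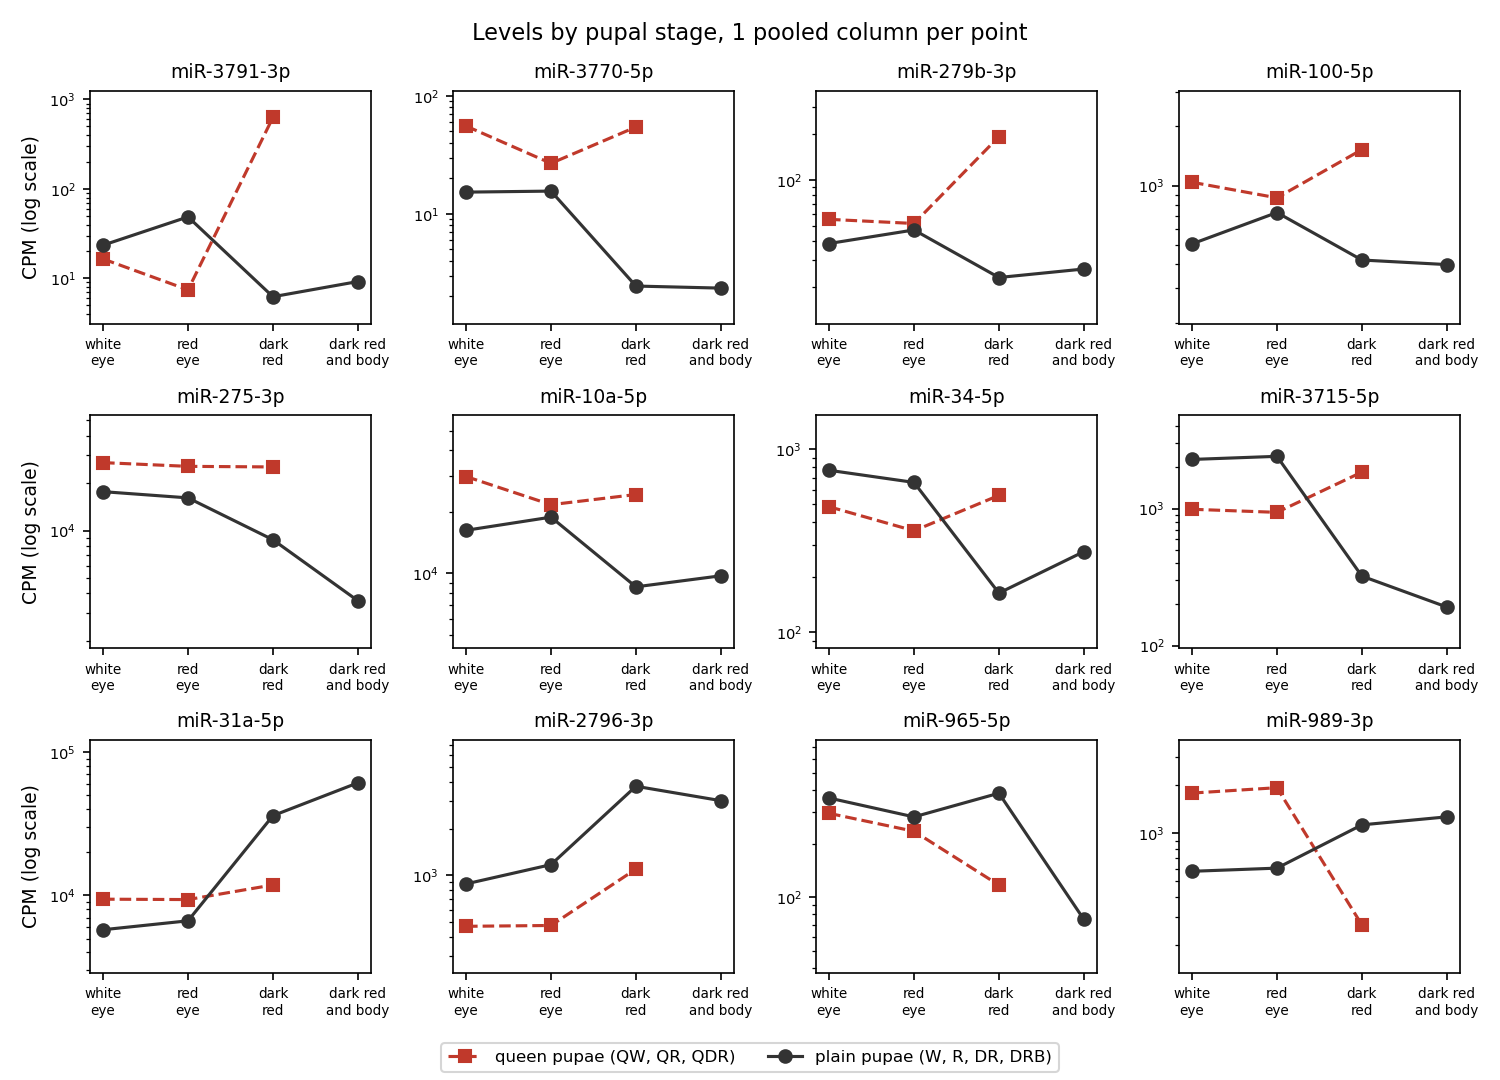
Level (CPM, log scale) of 12 miRNAs in queen pupae (red squares, dashed: QW, QR, QDR) and plain pupae (dark circles, solid: W, R, DR, DRB) by eye and body colour, 1 pooled column per point; the queen series has no column of the last stage. miR-275-3p and miR-10a-5p vary little in queens and low in DR and DRB, miR-31a-5p is high in DR and DRB, and miR-3791-3p is high in QDR alone.

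miR-10a-5p, which lies in the Hox cluster of insects, stood at 24330 CPM in QDR and 8585 CPM in DR, a log2 ratio of 1.5. Its levels were 16248, 18851 and 9725 CPM in W, R and DRB and 29807 and 21692 CPM in QW and QR. All queen columns were above all plain ones. The other measured Hox cluster member, miR-993-3p, had a log2 ratio of -0.59, and miR-iab-4-5p and miR-iab-8-3p were under 50 CPM. miR-210-3p, which was picked after its values were seen, stood at 81.0 CPM in QDR and 36.0 CPM in DR (log2 ratio 1.15). It is known from flies for a role in photoreceptors and daily rhythm, and it was highest in adult drones, with 1594 CPM.

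Among the lower entries, miR-989-3p, an ovary miRNA that in flies is needed for the migration of border cells, had the largest difference. It stood at 266 CPM in QDR and 1129 CPM in DR, a log2 ratio of -2.08. QDR was the lowest of all 18 stage columns, except with counts per sequenced read, while QW and QR had 1786 and 1930 CPM and W, R and DRB 577, 604 and 1267 CPM. The 3 queen columns therefore spanned the range of the plain ones on both sides. In organs it was highest in worker ovary (20865 CPM) and queen ovary (8695 CPM).

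miR-2796-3p, a brain miRNA of the honey bee, stood at 1096 CPM in QDR and 3760 CPM in DR, a log2 ratio of -1.78. It had 879, 1171 and 3034 CPM in W, R and DRB, and 467 and 473 CPM in QW and QR, so that each queen column was under the plain column of its stage. Worker and drone brain had 47577 and 39507 CPM, against 66.1 to 836 CPM in the other organs. The neural list as a whole had 2 measured members of 7, of which 1 was lower and 0 higher. Over all measured entries 7.59% were lower and 15.2% higher. The other measured member was miR-7-5p, a photoreceptor miRNA of flies, with a log2 ratio of -0.56 and levels under the plain range in all 3 queen columns. miR-124-5p, miR-137-3p, miR-219-3p, miR-929-5p and miR-932-5p were under 50 CPM, with log2 ratios of -0.42 to 0.29.

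miR-965-5p stood at 117 CPM in QDR and 385 CPM in DR, a log2 ratio of -1.71; in flies the miR-965 locus acts in forming the abdominal skin at metamorphosis. Its 3p arm did not differ to the same extent, with 27.0 CPM in QDR and 26.3 CPM in DR (log2 ratio 0.04). The 5p share was 81.3% in QDR and 93.6% in DR, against 94.2%, 92.8% and 70.6% in W, R and DRB. The QDR share thus lay between those of DR and DRB. In organs miR-965-5p was at most 154 CPM, in worker ovary.

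miR-13a-5p stood at 365 CPM in QDR and 1170 CPM in DR, a log2 ratio of -1.68. It belongs to the mir-71/mir-2 cluster, whose other 4 measured members had log2 ratios of -0.58 to 0.37, with a list median of -0.54. The same entry was the lower 1 of 5 measured members of the growth and apoptosis list, since the mir-2 family represses cell death genes in flies. Over all measured entries 7.59% were lower. The median of the growth and apoptosis list was -0.44. Its other members include bantam-3p, a growth miRNA of flies, at -0.44 and miR-11-3p, which restrains cell death in flies, at 1.00 (550 CPM in QDR and 275 CPM in DR, rounded from just under 2-fold). The arm counted here carries the seed CAUCAAA, not the seed AUCACAG of the 3p arms of the family.

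miR-3477-5p stood at 1474 CPM in QDR and 3151 CPM in DR, a log2 ratio of -1.10. In the bee it lies beside miR-12 and miR-283, and in this list of 3 measured entries 1 was lower and 0 higher, with log2 ratios of -1.10, -0.91 and -0.37. Over all measured entries 7.59% were lower and 15.2% higher. Per 1000 counts of miR-12-5p there were 279 of miR-3477-5p in QDR and 317 in DR. The pair therefore kept its proportion better than miR-283-5p, with 493 per 1000 in QDR and 340 in DR. In plain pupae miR-12-5p had 4626, 6396, 9934 and 24974 CPM in W, R, DR and DRB, against 5290 CPM in QDR.

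**Figure D4:**
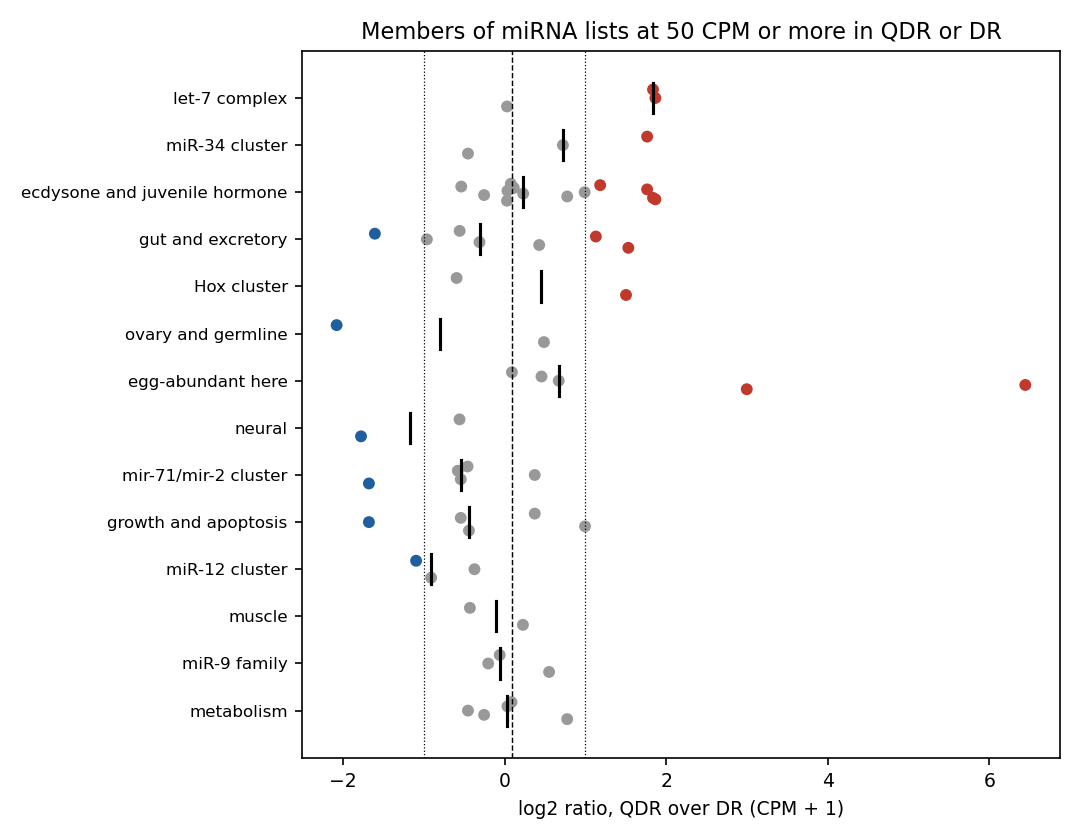
Log2 ratio of QDR over DR (horizontal axis, CPM + 1) for the measured members of 14 miRNA lists, 1 point per entry, with a black bar at each list's median. Red points are at least 2-fold higher and blue points at least 2-fold lower in QDR, dotted lines mark 2-fold and the dashed line the median of all 79 measured entries (0.09). The let-7 complex has 2 red points of 3, and the gut and excretory list has points on both sides.

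The other lists held 0 or 1 member at least 2-fold apart, against 22.8% of all measured entries, and are too small to be set apart from that share. Counts in the lists described before are small as well and were not tested against it. In the muscle list neither of the 2 measured members was 2-fold apart, with log2 ratios of -0.43 for miR-1-3p and 0.23 for miR-133-3p. The miR-9 family had 0 of 3, from -0.20 to 0.55, and the metabolism list 0 of 5, from -0.45 to 0.77. The list of miR-279, miR-263 and miR-276 had 1 of 6, miR-279b-3p. In that list miR-263a-5p, which protects sensory bristles in flies, reached 3451 CPM in QDR and 1869 CPM in DR, a log2 ratio of 0.88, and QDR was its highest stage column. miR-6001-3p and miR-2765-5p had log2 ratios of 0.57 and 0.17, and the miR-193 cluster 0.09 and -0.52.

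Entries with the same seed had like ratios in some groups and unlike ones in others. There were 17 seeds shared by 2 or more of the 137 entries, covering 41 entries. The 4 entries with the seed GACUAGA show how they part after the seed.
miR-279b-3p: uGACUAGAucgaaauacucguc
miR-279c-3p: uGACUAGAgucacacucgucca
miR-996-3p: uGACUAGAuacauacucgucu
miR-279d-3p: uGACUAGAuccacacucaucc
Their log2 ratios were 3.0, 0.64, 0.15 and -0.33 in this order. In DR miR-279b-3p was the scarcest of the 4 at 23.1 CPM, against 958 CPM for miR-279d-3p. In another pair the 3p arm of miR-275 and the 5p arm of miR-306 share a seed.
miR-275-3p: uCAGGUACcugaaguagcgcgcg
miR-306-5p: uCAGGUACugagugacucugaga
Their log2 ratios were 1.53 and -0.24, and miR-306-5p, at 4687 CPM in QDR and 5524 CPM in DR, was lowest in QDR of all stage columns, except with counts per sequenced read. For the seed ACCCUGU miR-10a-5p had 1.5 and miR-3785-3p -0.01. For the seed AUCACAG, miR-2944-3p had 2.61, miR-11-3p 1.00, miR-2a-3-5p (the entry of 23 bases) 0.37 and miR-13b-3p -0.54. Other groups had like ratios, such as 0.25 for miR-251 and 0.23 for miR-252a-5p with the seed UAAGUAC, and 0.08 to 0.67 for the 4 miR-92 entries with the seed AUUGCAC. For GGCAAGA all 3 entries were lower, at -1.61, -1.24 and -0.52 for miR-31a-5p, miR-72-5p and miR-31b-5p. These 3 differ by single bases, and miR-251 and miR-252a-5p by 2, as do some of the miR-92 entries, so counting could split reads among them.

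Both arms of 13 hairpins were listed among the 137 entries. Beside miR-927a and miR-965, the arms of miR-275 differed in ratio, with 1.53 for the 3p arm and 0.43 for the 5p arm, which held 2.70% of counts of both arms in QDR and 5.63% in DR. The 5p arm of miR-14 held 34.0% in QDR and 51.3% in DR, and 14.6%, 24.8% and 67.0% in W, R and DRB. In miR-14, then, QDR lay between R and DR in the plain series. For miR-100 the 5p arm held 97.8% in QDR and 94.6% in DR. miR-71 was nearly the same, at 97.0% in QDR and 96.8% in DR.

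The plain pupae vary among themselves, which gives a scale for the QDR and DR difference. With the same minimum, DR against R had 24 of 78 entries at least 2-fold apart (30.8%), DRB against DR 25 of 74 (33.8%) and R against W 8 of 78 (10.3%). QDR against R had 23 of 80 (28.8%) and QDR against DRB 41 of 79 (51.9%). Several of these comparisons share a column. Of the 79 measured entries QDR lay outside the range of W, R, DR and DRB for 25 (31.6%), above it for 19 (24.1%) and below it for 6 (7.59%). The 79 were chosen by their level in QDR or DR. An entry high in QDR alone could enter, but one high only in W, R or DRB could not, which favours places above the range. This split depended on scaling, with 15 above and 8 below for DESeq2 size factors, 10 above and 12 below for column totals and 13 above and 6 below for counts per sequenced read. Among the 18 entries 2-fold apart, QDR lay above that range for 8, below it for 1 and inside it for 9. The range includes DR, so entries called higher in QDR could not lie below it, and those called lower could not lie above it. The 8 were miR-3791-3p, miR-3770-5p, miR-279b-3p, miR-100-5p, miR-125-5p, miR-275-3p, miR-10a-5p and miR-210-3p, and the 1 below was miR-989-3p. With DESeq2 size factors and with column totals 9 were also inside, and with counts per sequenced read 6.

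A stricter view took the same 79 entries, chosen by QDR or DR. It asks that QW, QR and QDR all lie on 1 side of all 4 plain columns. This held above for 6 of the 79 entries (7.59%), namely miR-3770-5p, miR-279b-3p, miR-100-5p, miR-275-3p, miR-10a-5p and miR-184-3p. It held below for 3 (3.8%), miR-316-5p, miR-13b-3p and miR-7-5p, the first of which was picked after its values were seen. These counts moved with scaling, to 8 and 4 with DESeq2 size factors, 5 and 6 with column totals and 0 and 6 with counts per sequenced read. QW and QR held 0.648 M and 0.690 M counts, so that 3 counts came to 4.49 and 4.46 CPM there, and scarce entries are less certain in them.

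Over all 137 entries, QDR and DR were each other's nearest column among the 18 stage columns. The median absolute log2 ratio between them was 0.45. From QDR the next were R (0.47), W (0.52), QW (0.84), QR (0.90), DRB (0.92) and YA (0.95). From DR the next were YA (0.58), DRB (0.60), R (0.64) and W (0.74), ahead of QR (0.96) and QW (1.05). QDR lay nearer to W and R than DR did, and DR lay nearer to DRB and YA than QDR did, with TMM, DESeq2 size factors and column totals alike. Among the plain pupae, DR was nearer to DRB than to R with TMM only, at 0.63 for DRB and 0.62 for R with DESeq2 size factors and 0.68 for DRB and 0.61 for R with column totals. QDR was also nearer to DR, R and W than to the queen pupae QW and QR, whose low miRNA share of reads was given above; the part of that share in these distances was not tested. QDR and DR stayed nearest to each other with DESeq2 size factors and with column totals.

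**Figure D5:**
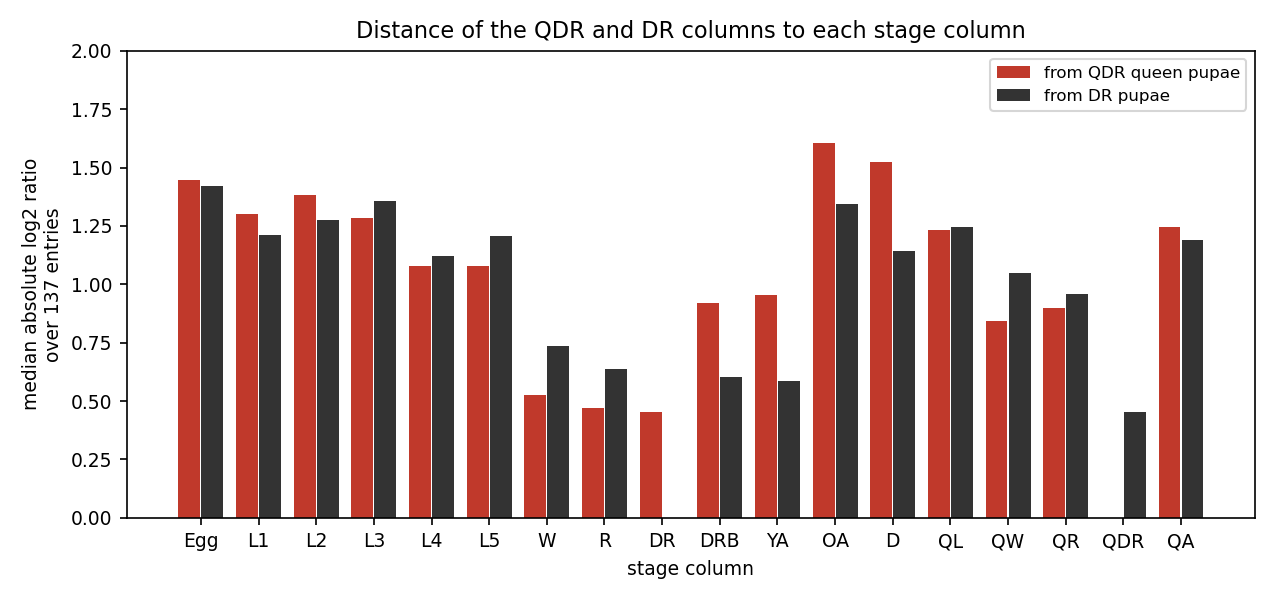
Median absolute log2 ratio over 137 entries (vertical axis, CPM + 1) from QDR queen pupae (red bars) and from DR pupae (dark bars) to each stage column (horizontal axis), with no bar for a column against itself. The smallest bars are those between QDR and DR (0.45); QDR is closer to W and R than DR is, and DR is closer to DRB and YA than QDR is.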

How the data were processed

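Small RNA libraries of Apis cerana were counted per miRNA by the authors, who deposited raw read counts as 1 column per group, with the mature sequence of each entry. Per the submitters' processing notes, bcl2fastq and kallisto were used; settings and a genome build are not given in the sources used here. Read totals and GC content in percent come from the authors' deposited sequencing statistics. The QDR and DR columns exceed the mean reads of their libraries (9.69 M and 8.66 M) and were treated as sums.

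TMM factors were computed over 18 stage columns (edgeR 4.0.16, R 4.3.3). An entry was counted as different when CPM + 1 was at least 2-fold apart and the higher side had 50 CPM or more. Intervals are exact conditional binomial 95% intervals of counts (SciPy 1.17.1). The log2 ratio and its counting interval were tested on simulated counts with known column totals. Scaling, the minimum level, the 2-fold call and spread between libraries were not part of that simulation. No test between groups is possible with 1 column a side. The members and lists were chosen with earlier results of these data known. Named entries were up to 10 per direction by size, the 5 most abundant, list members, and the arms or seed partners of these. Organ columns were scaled apart and matched by name and sequence, which held for 62 of 137 entries. Of the 137, 110 matched the authors' conserved list by name and sequence. A pair of entries shares the name miR-2a-3-5p. Alternatives were DESeq2 1.42.0 size factors, column totals, TMM from QDR and DR alone, other pseudocounts and minimums, and, added after seeing the data, counts per sequenced read.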

Additional observations from a re-analysis of the deposited data

How the results depend on the processing

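Of the 18 entries at least 2-fold apart, 14 were so under each of the 9 alternatives and none of their ratios changed sign under these. Counts ran from 18 to 23 under the 8 alternatives chosen at the outset. With counts per sequenced read, added after the data were seen, 28 entries were apart, 12 higher in QDR and 16 lower. That scaling moved the median log2 ratio by -0.38, as its construction implies for columns with miRNA shares of 44.4% in QDR and 57.1% in DR, and took the share of higher entries to 42.9%, against 66.7%. It lost miR-210-3p, miR-305-5p and miR-927a-5p. miR-3770-5p fell under 50 CPM with DESeq2 size factors, with column totals and with TMM from QDR and DR alone; the last added miR-11-3p and miR-252b-5p, the others miR-281-5p. Among the lists the number of members apart stayed between 16 and 17 under these, and was 22 per sequenced read. Without a minimum level 5 scarce entries were added, 3 higher in QDR (miR-2944-3p, miR-3478-3p, miR-6057-5p) and 2 lower (miR-72-5p, miR-981-3p). No paired analysis was possible because each column pools its libraries and carries no replicate number, and for the same reason no library could be left out. Depth was ample for most measured entries, since 67 of the 79 had 1000 or more counts in both QDR and DR, but the lowest count was 33. A single column per group leaves the spread between animals unknown.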
